A study of Mus musculus with 12 samples.

Results

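SLM2, the protein encoded by *Khdrbs3*, is a KH-domain RNA-binding protein of the STAR family that sits in the nuclei of neurons and controls alternative splicing. Its sites in 7 long non-coding genes (*Malat1*, *Meg3*, *Neat1*, *Gm26871*, *A330076H08Rik*, *Gm42418* and *Snhg12*) were examined, counting every peak whose centre lay within the GENCODE vM21 span of such a gene and on its strand. The genes were selected on the peak counts themselves, for holding the most non-coding peaks, so the counts describe the choice and carry no test. The choice was not strict, since *Snhg12* held 1 peak, fewer than some non-coding genes outside it. Of 2235 peaks in all, 71 lay in these genes. They were 38 of 178 peaks of the hippocampus (21.3%, exact 95% binomial interval 15.6 to 28.1) and 33 of 2057 peaks of whole brain (1.60%, 1.11 to 2.25), where the intervals cover counting error only. As background, at least 1 peak lay in 11 of 13374 annotated long non-coding genes in hippocampus (0.0822%) and in 41 of 13374 in whole brain (0.307%).

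The study cross-linked RNA to protein with UV light (3 exposures of 400 mJ/cm2), precipitated SLM2 and sequenced the bound RNA beside size-matched input RNA, a method called eCLIP. All tissue came from mice aged 30 days. Wild-type hippocampus has 2 eCLIP and 2 input libraries and wild-type whole brain has 2 and 2, and the remaining 4 of the 12 libraries, from *Slm2* KO hippocampus, were not analysed here. Each tissue has 1 merged peak list, so no value has a spread between replicates, and the hippocampal lysates pooled several hippocampi. The log2 fold change of a peak is eCLIP over input and the −log10 p refers to the same contrast, both computed by the authors. Depth is not part of the lists. By the statistics of the study the hippocampal libraries were shallower and were amplified with more PCR cycles, so tissue, depth and amplification cannot be told apart in any contrast of the lists, and neither can fewer cells that make an RNA and less of it per cell. The lists hold no expression values, so the tissue labels were not checked against markers.

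Long non-coding RNAs of the nucleus can hold proteins in nuclear bodies or act as they are transcribed. *Malat1* is an abundant RNA of nuclear speckles, which store splicing factors, and *Neat1* is the scaffold of paraspeckles. *Meg3* is transcribed from the maternal copy of the imprinted *Dlk1* locus. *Gm26871* holds the microRNA gene *Mir137* and *A330076H08Rik* holds *Mir344-2*, while *Snhg12* is a host of small nucleolar RNAs, which guide the modification of other RNAs. The label of a nuclear long non-coding RNA did not hold for every gene. RefSeq lists *Gm42418* as a synonym of *Rn18s-rs5*, a pseudogene related to 18S ribosomal RNA, and the peak of *Snhg12* lay within the snoRNA *Snord99*.

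The following sequences carry the main contrasts among these RNAs. They run 5′ to 3′ in the orientation of the transcript, were read from the RefSeq GRCm38.p6 genome (mm10), and show UWAA (UAAA or UUAA, the core of the SLM2 motif) in capitals. The first set is hippocampal and holds a UWAA-rich peak near the 5′ end of *Malat1*, the peak of highest log2 fold change in *Malat1*, the same for *Meg3*, and a purine-rich *Meg3* peak without UWAA. It ends with the peaks of *Gm42418* and *Snhg12*, which overlap ribosomal and small nucleolar RNA.
Malat1, chr19:5802180-5802275, minus strand: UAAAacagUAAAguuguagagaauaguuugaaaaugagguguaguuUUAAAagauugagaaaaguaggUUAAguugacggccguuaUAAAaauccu
Malat1, chr19:5799945-5800048, minus strand: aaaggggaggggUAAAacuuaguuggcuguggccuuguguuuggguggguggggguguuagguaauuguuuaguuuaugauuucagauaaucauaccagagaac
Meg3, chr12:109561723-109561848, plus strand: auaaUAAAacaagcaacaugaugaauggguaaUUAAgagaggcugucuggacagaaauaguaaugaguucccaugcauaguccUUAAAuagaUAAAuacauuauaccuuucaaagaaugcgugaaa
Meg3, chr12:109562090-109562267, plus strand: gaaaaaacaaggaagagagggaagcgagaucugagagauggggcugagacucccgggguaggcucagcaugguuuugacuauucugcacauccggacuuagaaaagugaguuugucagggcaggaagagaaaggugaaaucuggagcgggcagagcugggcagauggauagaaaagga
Gm42418, chr17:39847188-39847227, plus strand: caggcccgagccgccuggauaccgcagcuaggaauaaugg
Snhg12, chr4:132310694-132310760, plus strand: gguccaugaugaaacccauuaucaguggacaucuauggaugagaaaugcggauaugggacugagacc

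The second set shows both tissues side by side. It holds the single hippocampal peaks of *Neat1* and *Gm26871*, then the whole-brain peak of lowest p in *Neat1*, the *Gm26871* peak with the most UWAA, and the *A330076H08Rik* peak with the most UWAA.
Neat1, hippocampus, chr19:5845316-5845472, minus strand: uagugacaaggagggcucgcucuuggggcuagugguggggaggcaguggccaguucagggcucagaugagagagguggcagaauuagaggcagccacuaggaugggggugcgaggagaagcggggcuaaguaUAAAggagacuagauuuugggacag
Gm26871, hippocampus, chr3:118466816-118466942, plus strand: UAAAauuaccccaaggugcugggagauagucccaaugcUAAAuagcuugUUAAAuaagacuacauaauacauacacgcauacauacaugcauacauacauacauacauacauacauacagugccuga
Neat1, whole brain, chr19:5843254-5843421, minus strand: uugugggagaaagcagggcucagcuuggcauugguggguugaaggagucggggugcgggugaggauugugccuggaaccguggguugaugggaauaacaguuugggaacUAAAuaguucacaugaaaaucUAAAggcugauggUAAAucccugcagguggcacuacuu
Gm26871, whole brain, chr3:118460105-118460263, plus strand: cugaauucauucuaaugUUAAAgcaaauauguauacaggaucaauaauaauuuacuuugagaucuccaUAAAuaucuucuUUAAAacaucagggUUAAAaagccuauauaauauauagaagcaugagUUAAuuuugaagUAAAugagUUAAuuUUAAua
A330076H08Rik, whole brain, chr7:61931875-61932117, minus strand: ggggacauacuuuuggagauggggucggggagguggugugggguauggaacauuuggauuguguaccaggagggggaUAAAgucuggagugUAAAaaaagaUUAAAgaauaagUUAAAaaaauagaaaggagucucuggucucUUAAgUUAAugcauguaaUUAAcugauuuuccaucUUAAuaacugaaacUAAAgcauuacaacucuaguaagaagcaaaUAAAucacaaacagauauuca

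Most of the 7 genes held peaks in 1 list only. In hippocampus *Malat1* held 18 peaks, *Meg3* 14, *Gm42418* 3, and *Neat1*, *Gm26871* and *Snhg12* 1 each, while *A330076H08Rik* held 0. In whole brain *Gm26871* held 14, *Neat1* 11 and *A330076H08Rik* 8, and the other 4 genes held 0. *Neat1* and *Gm26871* were thus the genes with peaks in both lists. For comparison, 8 long non-coding genes held 1 hippocampal peak each, among them *Neat1*, *Gm26871* and *Snhg12*. Of the rest of these 8, 1 gene also held a whole-brain peak, so peaks in 1 list only were not particular to the chosen genes. The peaks of *Neat1* and *Gm26871* did not coincide. Over all 7 genes, 0 of 38 hippocampal and 0 of 33 whole-brain peaks shared a nucleotide with a peak of the other list. Among the other peaks, 55 of 140 in hippocampus (39.3%) and 59 of 2024 in whole brain (2.92%) did. In genes with peaks in 1 list only, the lack of shared peaks follows from the division of the genes. In hippocampus that leaves 1 peak each of *Neat1* and *Gm26871*. The whole-brain count is near the small share of the other peaks. In *Neat1* the closest peaks of the tissues were 1090 nt apart and in *Gm26871* 6145 nt apart. No peak lay on the other strand of any of the 7 genes in either list.

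**Figure D1:**
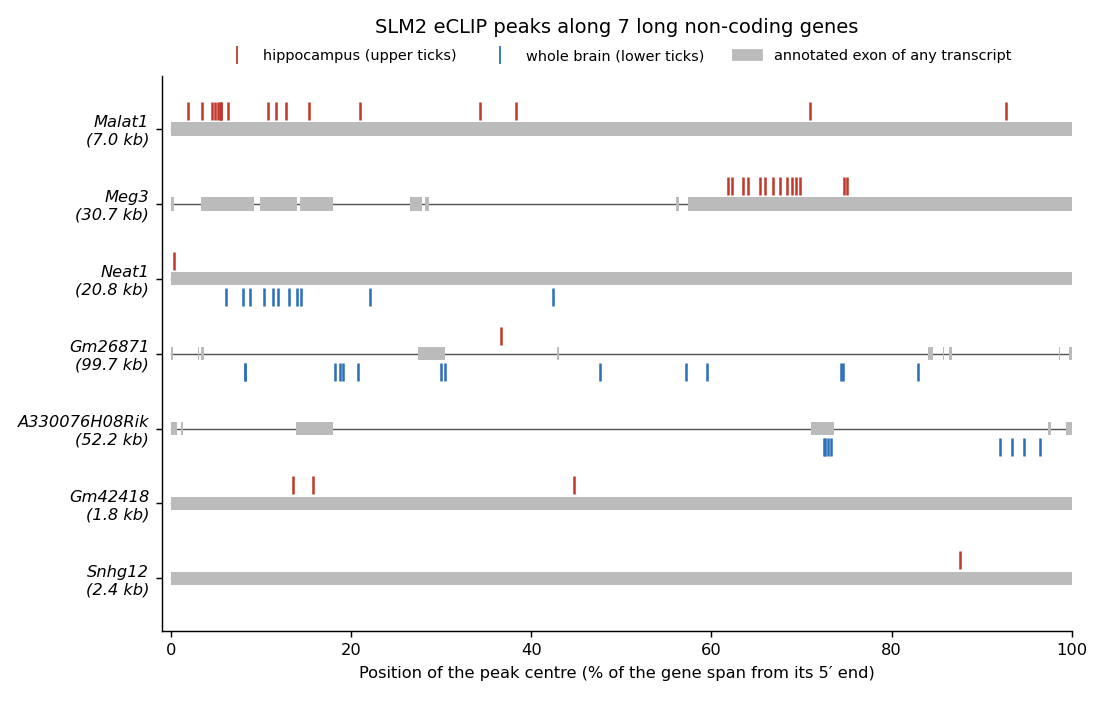
Position of each peak centre along the 7 genes, in percent of the gene span from its 5′ end, with hippocampal peaks as red ticks above each gene, whole-brain peaks as blue ticks below it, and annotated exons in grey. *Malat1* and *Meg3* carried peaks in hippocampus, *A330076H08Rik* in whole brain, and the peaks of *Meg3* lay between 61.8% and 75.1% of its span.

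No peaks of these genes touched, but many were separated by 1 nt, and when peaks at most 10 nt apart were joined the 38 hippocampal peaks formed 27 sites and the 33 whole-brain peaks 29 sites. *Malat1* had 9 sites and *A330076H08Rik* 5, while *Meg3* had 13, *Gm26871* 13 in whole brain and *Neat1* 11 in whole brain. Just outside the choice of genes, the other long non-coding genes of the hippocampal list held 1 peak each, as did *Neat1*, *Gm26871* and *Snhg12*. In whole brain the next genes were *Gm47591* with 5 peaks and *Gm37965* and *Gm47477* with 3 each, and each of these peaks also lay within a protein-coding gene. Of 30 further long non-coding RNAs listed for comparison, 28 were annotated, and 0 held a hippocampal peak and 1 a whole-brain peak. That gene was *Snhg11*, which GENCODE types as protein-coding, with a peak of log2 fold change 2.62 and −log10 p 47.2. Of 14 genes listed for abundant structural RNAs, 12 were annotated. Of these *Lars2* alone held a peak, in hippocampus, with a log2 fold change of 2.07, and GENCODE types it as protein-coding too. *Rn18s-rs5* was listed as well, and *Gm42418*, its RefSeq synonym, held 3 hippocampal peaks. Structural RNA genes outside the list also held hippocampal peaks. Among them were the small nuclear RNA genes *Gm26244* with 4 and *Gm23240* with 2, and the rRNA gene *n-R5s33* with 2. The peaks of *Gm26244* and *n-R5s33* also lay within protein-coding genes.

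*Malat1* (chr19:5795690-5802672, minus strand, 6983 nt in 1 exon of the transcript Malat1-201) was covered most densely, with 2.58 peaks per kb and 18.0% of its length inside hippocampal peaks. Its peaks crowded towards the 5′ end: 13 of 18 centres (72.2%) lay within the first 20% of the transcript and the median centre was 599 nt from the 5′ end. The first peak was centred 132 nt from the 5′ end. The following 8 peaks joined into a single site of 309 nt (chr19:5802180-5802488), in which peaks as short as 4 nt were separated by gaps of 1 nt. The median position was 8.57% of the transcript over all peaks and 21.0% when each site counted once. Neighbouring fragments of it carried the same values, a log2 fold change of 3.31 with a −log10 p of 37.6 in one pair and 3.56 with 28.2 in another. The other 9 peaks stood further along, and the last was centred 6473 nt from the 5′ end (92.7%), 182 nt from the start of mascRNA, the small RNA cleaved from the 3′ end of *Malat1*. The annotated gene *Gm37376* lies opposite part of the 309-nt site, and the peaks were read on the *Malat1* strand.

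The peaks of *Malat1* were among the firmest of the hippocampal list by the authors' values. Their log2 fold change ranged between 2.44 and 4.71 with a median of 3.17, and their −log10 p between 4.88 and 37.6 with a median of 25.9. The median of the 140 hippocampal peaks outside the 7 genes was 2.46 for the log2 fold change and 1.47 for the −log10 p, and 92 of those peaks had a −log10 p below 2, against 3 of 38 in the 7 genes and 0 of 18 in *Malat1*. Of the 40 hippocampal peaks of highest −log10 p, 17 lay in *Malat1* and 21 in the 7 genes. Of the 17, 8 were fragments of the 309-nt site, so these counts and the *Malat1* medians weigh that site repeatedly. The highest log2 fold change in *Malat1* belonged to a peak of 104 nt centred 2676 nt from the 5′ end (chr19:5799945-5800048, 4.71, −log10 p 32.0), which ranked 2 of 178. These values are part of how peaks were called, and *Malat1* was picked for its number of peaks, so they are given as a description.

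*Meg3* (chr12:109541001-109571726, plus strand, 30726 nt) carried its 14 hippocampal peaks in a stretch of 4157 nt, 13.5% of the gene span (109559936 to 109564092). All 14 centres lay in the last exon of the transcript Meg3-209, which starts at 109558640, and 7 of them also in an exon of Meg3-206. The same stretch is intron in Meg3-207, Meg3-208 and Meg3-211 (14 of 14 centres each), and the lists do not tell which transcript was bound. Unlike those of *Malat1*, the *Meg3* peaks were mostly separate, with gaps of 9 to 1380 nt and a median gap of 82 nt. Their log2 fold change was lower, with a median of 2.37 and a range of 2.07 to 4.33, and so was their −log10 p (median 3.66, range 1.14 to 6.79). The peak of highest log2 fold change (109561723 to 109561848, 4.33, −log10 p 6.79) ranked 5 of 178. The 2 peaks furthest downstream had a −log10 p below 2, at 1.75 and 1.14, and the nearer one began 86 nt past the microRNA gene *Mir770*.

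**Figure D2:**
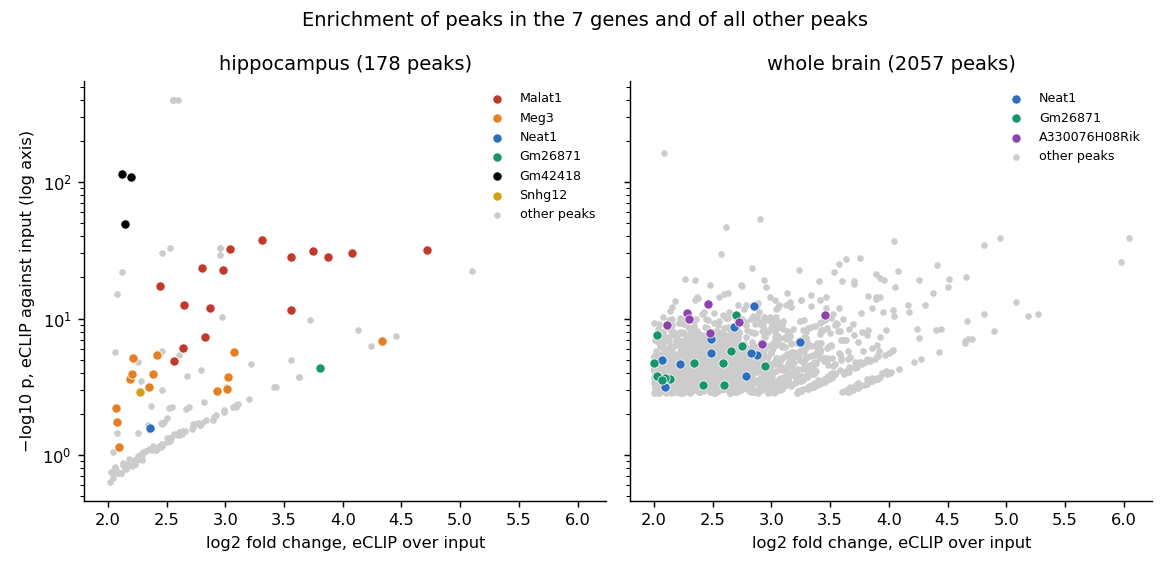
The log2 fold change of each peak, eCLIP over input, against its −log10 p on a log axis, for hippocampus on the left and whole brain on the right, with peaks of the 7 genes in colour and all other peaks in grey. *Malat1* held 17 of the 40 hippocampal peaks of highest −log10 p, 8 of them in 1 joined site. None of the 7 genes stood among the first 40 of whole brain.

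*Neat1* (chr19:5824708-5845478, minus strand, 20771 nt) has a short isoform, Neat1-202, and a long one, Neat1-201, with a shared 5′ part. Of its 11 whole-brain peaks 9 lay in the part shared by both isoforms, between 1280 and 3000 nt from the 5′ end, and the other 2 lay in the long isoform alone, at 4598 and 8803 nt. The hippocampal peak was centred 84 nt from the 5′ end (5845316 to 5845472) and was weak, with a log2 fold change of 2.36 and a −log10 p of 1.59. The whole-brain peaks had log2 fold changes of 2.06 to 3.24 (median 2.68) and −log10 p of 3.13 to 12.4 (median 5.60). Past the peak at 8803 nt the long isoform held no peak in either list.

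*Gm26871* (chr3:118430324-118530022, plus strand, 99699 nt) carried whole-brain peaks over most of its length, 8.18% to 82.9% of the span, so that its peaks spanned 74553 nt. Of 14 peaks 12 lay in introns, and the other 2 lay in Gm26871-206, a transcript annotated as a retained intron. The single hippocampal peak (118466816 to 118466942) was intronic too and had a higher log2 fold change, 3.81, than any whole-brain peak of the gene, whose range was 2.00 to 2.94 with a median of 2.38. The 2 lists were scaled to their own inputs, so this difference is not a contrast of binding. The −log10 p was 4.31 for the hippocampal peak and 3.23 to 10.5 for the whole-brain peaks (median 4.58). The whole-brain peak nearest to the *Mir137* hairpin began 4507 nt past it.

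*A330076H08Rik* (chr7:61930137-61982358, minus strand, 52222 nt) carried its 8 whole-brain peaks past 72.4% of the span, in 2 groups. The first was a run of 4 peaks joined by gaps of 1 nt, inside the last exon of A330076H08Rik-202 and inside an intron of A330076H08Rik-203. The second was 4 separate peaks in an intron of A330076H08Rik-203, centred at 92.0% to 96.4% of the span. In the first group the log2 fold change was 2.11 to 3.45 and the −log10 p 6.51 to 10.6. In the second it was 2.28 to 2.48, with a −log10 p of 7.82 to 12.8. The *Mir344-2* hairpin lies between the groups, 3935 nt from the nearest peak.

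*Gm42418* and *Snhg12* stood apart from the other 5 genes. The 3 peaks of *Gm42418* (chr17:39846958-39848788, plus strand), at 39847188 to 39847227, 39847229 to 39847266 and 39847756 to 39847797, were 38 to 42 nt long and had the highest −log10 p among the genes, 109.7, 114.9 and 49.6, with log2 fold changes of only 2.20, 2.12 and 2.15. All 3 lay within the 18S-related pseudogene, and reads of ribosomal RNA from elsewhere in the genome cannot be told apart from reads of this copy by the lists. GENCODE places an rRNA (*CT010467.1*) and the transcript *AY036118* on the opposite strand. The peak of *Snhg12* (chr4:132310694-132310760, plus strand) covered 67 of the 74 nt of *Snord99*, with a log2 fold change of 2.28 and a −log10 p of 2.87. Both genes held 0 whole-brain peaks. Without *Gm42418* and *Snhg12*, 34 of 178 hippocampal peaks (19.1%, 13.6 to 25.7) lay in the chosen genes.

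The peak sequences were then searched for UWAA (read on the transcript strand, overlapping matches included). Starts were counted in a window reaching 50 nt to either side of a peak's centre, and in 2 flanks that lie 450 to 550 nt from it. By gene, it was densest in *A330076H08Rik* and *Gm26871* in whole brain. *Gm26871* had 3.72 starts per 100 positions at its 14 whole-brain peaks, against 2.19 in the flanks and 1.80 over the whole gene. *A330076H08Rik* had 3.95 at its 8 peaks, against 2.42 in the flanks and 1.37 over the gene. The difference between peaks and flanks was 1.53 in both genes, with counting intervals on the peak density that leave 0.593 to 2.67 in *Gm26871* and 0.279 to 3.14 in *A330076H08Rik*. These intervals treat each position as independent and the flank density as fixed. Motifs in tandem and neighbouring peaks are not independent, so the intervals carry no test. By single peaks, 10 of 14 in *Gm26871* held more UWAA than the mean of their flanks and 3 held less, while in *A330076H08Rik* 4 did and 4 did not. UWAA occurred in 13 of 14 and 8 of 8 windows, against 71.9% and 63.3% of all windows of the same length (101 nt) along the 2 genes. All 8 windows of *A330076H08Rik* and 6 of 14 of *Gm26871* were more than 20% repeat-masked, and the part of repeats in these densities was not tested.

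Exons and introns of these 2 genes were also counted apart, though on few peaks. The 12 intronic peaks of *Gm26871* had 3.49 UWAA starts per 100 positions, against 2.13 in their flanks, and the 2 peaks of its retained-intron transcript had 5.10, against 2.55. In *A330076H08Rik* the 4 intronic peaks had 4.85, against 2.30 in their flanks, and the 4 peaks of the terminal exon 3.06, against 2.55, with 2 peaks above and 2 below their flanks. Flanks of the outer peaks in the exonic run overlap the run itself. The hippocampal peak of *Gm26871* held 3 starts in its window and 4 within the peak, and its flanks held 0. Counted over joined sites, the density was 3.68 in *Gm26871* in whole brain, against 1.80 over the gene, and 3.62 in *A330076H08Rik*, against 1.37. The densest single windows were those of the last *A330076H08Rik* peak, with 9 starts, and of the last *Gm26871* peak (118512893 to 118512989), with 8.

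These genes were also the richest in A and U. The windows at *A330076H08Rik* peaks were 69.9% A or U, against 61.9% over the gene, and those at *Gm26871* whole-brain peaks 67.1%, against 62.3%. *Malat1* peaks followed with 61.5%, against 57.5% over the transcript. *Meg3* had 51.2%, against 49.8%, and *Neat1* in whole brain 51.3%, against 52.7%. UWAA is itself made of A and U, and the part of base composition in the densities was not tested.

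*Neat1* and *Meg3* did not share this. *Neat1* had 1.21 UWAA starts per 100 positions at its whole-brain peaks, against 1.39 in the flanks and 0.900 over the transcript, and 7 of 11 windows held the motif, against 47.2% of all its windows. *Meg3* had 0.948 at its hippocampal peaks, against 1.79 in the flanks and 0.758 over its exons, with 6 of 14 windows holding the motif, against 37.5%. Over joined sites the density was 1.38 in *Neat1*, against 0.900 over the transcript, and 0.813 in *Meg3*, against 0.758. In *Meg3* 9 of 14 peaks held less UWAA than their flanks and 4 held more. Since the *Meg3* peaks stand close together, flanks of one peak can overlap another. An exception within *Meg3* was the peak of highest log2 fold change, printed above, which held 5 UWAA starts in its 126 nt and accounts for 5 of the 12 starts in all *Meg3* sites.

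**Figure D3:**
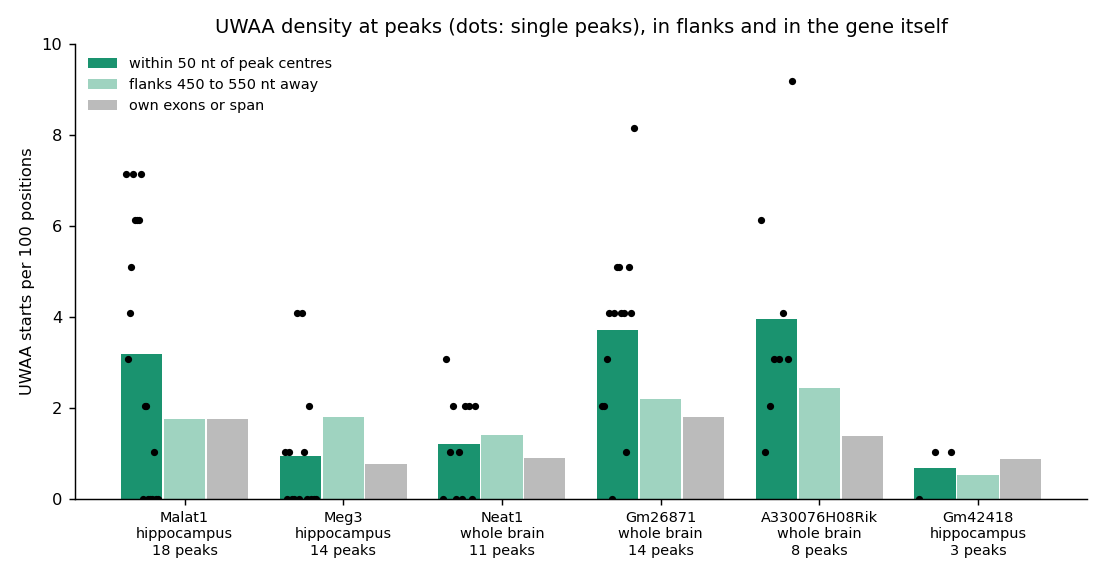
UWAA starts per 100 positions in windows of 50 nt to either side of peak centres (dark bars, with single peaks as dots), in the flanks 450 to 550 nt away (light bars) and in the exons or span of the gene itself (grey bars), for each gene and tissue with at least 3 peaks. The peak bars of *Gm26871* and *A330076H08Rik*, at 3.72 and 3.95, stand above both other bars, and the dots of *Malat1* fall into a high and a low set.

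In *Malat1* the motif separated the 5′ end from the rest. Over all 18 peaks it had 3.17 UWAA starts per 100 positions at the peaks, against 1.76 in the flanks and 1.75 over the transcript. The 9 peaks of the first 2 sites held 3 to 7 starts each, more than their flanks in 9 of 9 peaks, while the 9 peaks of the other 7 sites held 0 to 2, and less than their flanks in 8 of 9. This division was made after the values were seen. The first 9 peaks were centred 132 to 445 nt from the 5′ end, so 1 of the 2 flanks of each lies before the annotated start of *Malat1*. A flank of the last peak also runs partly past the 3′ end. The flank density of 1.76 includes these sequences outside the transcript. The windows of the 309-nt site overlap and count the same motifs repeatedly, so the sites are better read as joined sequences. The first 2 sites held 18 UWAA starts in 374 nt (4.89 per 100 positions) and the other 7 sites 4 in 889 nt (0.461). Over all 9 sites the density was 1.78, against 1.75 for the whole transcript, and the difference was 0.03. The peak of highest log2 fold change in *Malat1*, printed above, held 1 UWAA and 3 starts of GGWGG.

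Not all UWAA-rich stretches held a peak, and the lists hold only peaks past their thresholds. The densest window of *Malat1*, with 9 UWAA starts, was centred 4208 nt from the 5′ end and lay 734 nt from the nearest peak. The densest windows of *Meg3*, *Neat1* and *Gm26871*, with 9, 8 and 13 starts, were also outside any peak, the nearest peaks lying 15989, 5355 and 6429 nt away. In *A330076H08Rik* 33 windows reached its highest count, 9 starts. Of these 32 touched a peak, but overlapping windows count the same motifs repeatedly and are not separate sites. The remaining window, centred 41631 nt from the 5′ end, lay 3315 nt from the nearest peak. Among stretches of windows with at least 5 starts, 4 of 6 touched a peak in *Malat1*, 4 of 8 in *Meg3*, 1 of 4 in *Neat1*, 9 of 113 in *Gm26871* and 7 of 38 in *A330076H08Rik*. Read the other way, 8 of 8 peaks of *A330076H08Rik* touched such a stretch, 11 of 18 of *Malat1*, 9 of 15 of *Gm26871*, 4 of 14 of *Meg3* and 1 of 12 of *Neat1*.

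**Figure D4:**
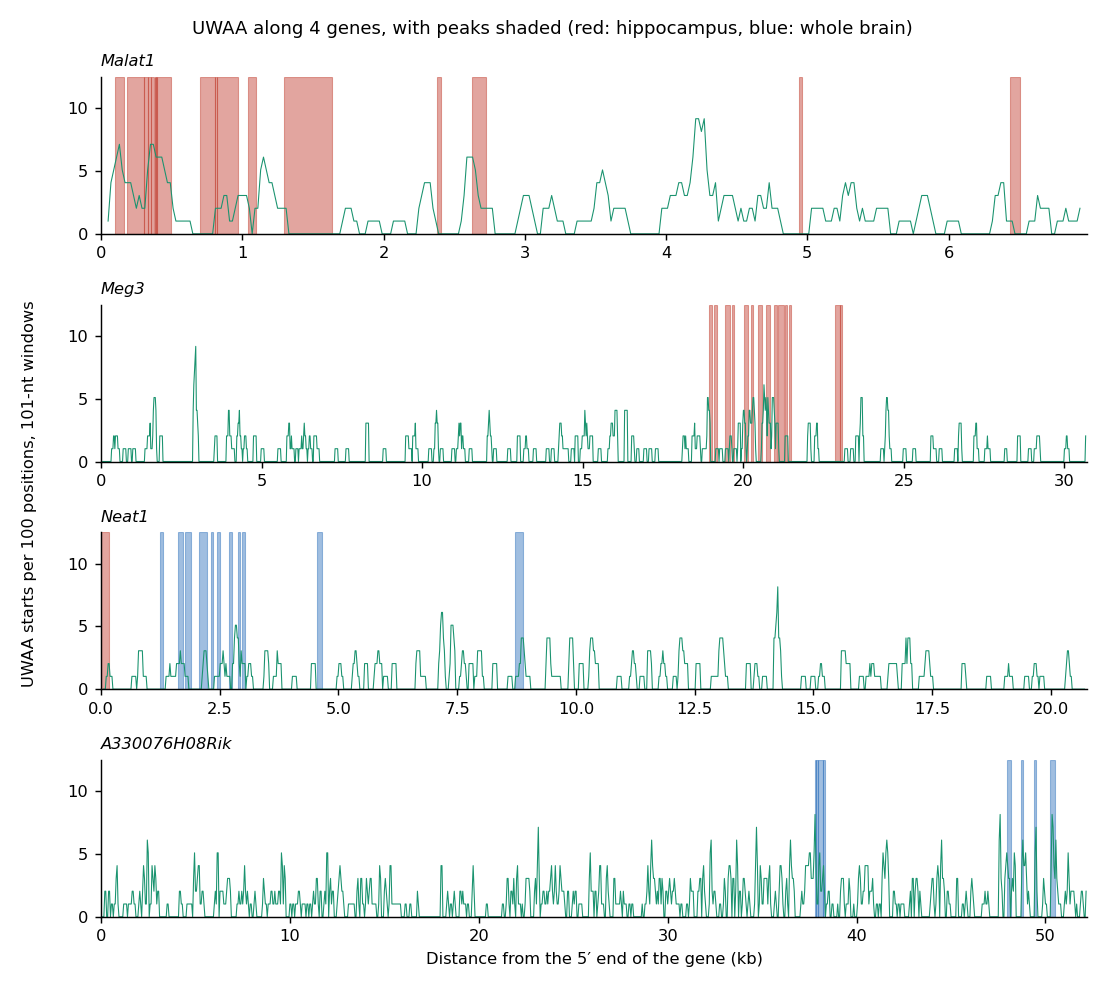
UWAA starts per 100 positions in 101-nt windows along *Malat1*, *Meg3*, *Neat1* and *A330076H08Rik*, by distance from the 5′ end in kb, with hippocampal peaks shaded red and whole-brain peaks shaded blue. The densest window of *Malat1*, 4208 nt from the 5′ end, lay outside the peaks.

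The longer motif UUAAAAA or UUUAAAA was rare. It occurred in 6 of 18 windows of *Malat1*, where 10.4% of all windows of the transcript hold it, in 5 of 14 of *Gm26871* in whole brain (7.23% of all windows) and in 3 of 8 of *A330076H08Rik* (4.87%). None of the windows of *Meg3*, *Neat1*, *Gm42418* and *Snhg12* held this longer motif. In *Malat1* the windows of the 309-nt site overlap and count the same motifs repeatedly. Within the *Malat1* peaks themselves the longer motif occurred in 1 peak alone (chr19:5802180-5802275). The G-rich motif GGWGG (GGAGG or GGUGG) occurred in 8 of 18 windows of *Malat1* (29.3% of all its windows), 5 of 14 of *Meg3* (30.4%) and 5 of 11 of *Neat1* in whole brain (25.3%), and in the hippocampal *Neat1* window 3 times. In *Gm26871* 0 of 14 whole-brain windows held it, against 11.7% of all windows of the gene, and in *A330076H08Rik* 2 of 8 did, against 14.3%. *Gm42418* had 2 UWAA starts in its 3 windows and 0 within the peaks themselves, and *Snhg12* had 0.

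The 5-mers most in excess over the gene's own sequence also differed between genes. In *Malat1* peaks GAAGA occurred 15 times of the 25 in the whole transcript, where 4.23 would follow from its frequency there. It lay in 6 of the 18 peaks, and most of the 15 fell in a single joined site (chr19:5801704-5801974). In *Meg3* peaks GAGAG occurred 18 times of 45 (3.62 from its frequency) and GAAGA 15 times of 43 (3.46). A window with GAAGA was found at 5 of 18 *Malat1* peaks and 9 of 14 *Meg3* peaks, against 23 of the 140 other hippocampal peaks (16.4%), and a window with GAGAG at 0 of 18 and 7 of 14, against 20 (14.3%). The windows of *Malat1* held 14 GAAGA and its 2 flanks together 29, while those of *Meg3* held 13 and its flanks 15. In *Neat1* whole-brain peaks the leading 5-mer was GGUUG, 7 times of 30 (1.35 from its frequency). In *Gm26871* it was AAUAA, 15 times (4.30 from its frequency), and in *A330076H08Rik* AACAA, 24 times (2.60 from its frequency), together with ACAAC. A single peak with a CAA repeat held 14 of those 24 AACAA and 15 of the 17 ACAAC. These words were ranked by their counts in the same peaks and carry no test. The 7-mer ACGAAGG, which recurs in the hippocampal list, was found in 6 of 18 *Malat1* windows, yet only once within the *Malat1* peaks themselves, since overlapping windows shared 1 occurrence. It was found in 12 of the 140 other windows, 9 of which lay in exons.

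Set against the other peaks of their list, the 7 genes did not stand out for UWAA. In hippocampus they had 1.99 starts per 100 positions, against 2.697 at the other peaks, and 21 of 38 windows held the motif (55.3%, exact 95% interval 38.3 to 71.4), against 99 of 140 (70.7%, 62.4 to 78.1). In whole brain they had 2.94, against 3.61, with 28 of 33 windows holding the motif (84.8%, 68.1 to 94.9), against 1691 of 2024 (83.5%, 81.9 to 85.1). The comparison turned with the kind of peak. Exons held 37 of 38 hippocampal peaks of the 7 genes (97.4%), against 30 of 140 others (21.4%), and 17 of 33 whole-brain peaks (51.5%), against 92 of 2024 (4.54%). Against other peaks in exons alone, the hippocampal density of the 7 genes was higher, 1.99 against 0.544, and the whole-brain densities were 2.94 and 2.92. Of the hippocampal value, 51 starts came from the 9 windows of the first 2 *Malat1* sites, most of which overlap, and the other 29 peaks had 0.809 per 100 positions. At least 2 UWAA that did not overlap were found in 13 of 38 hippocampal windows (34.2%), against 72 of 140 others (51.4%), and in 23 of 33 whole-brain windows (69.7%), against 1434 of 2024 (70.9%). Of the peaks in the 7 genes 1, in *Malat1*, shared 10 nt with the sequencing adaptor, against 9 of the other hippocampal and 65 of the other whole-brain peaks with 10 nt or more.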

How the data were processed

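eCLIP and size-matched input libraries of SLM2 were analysed as the merged peak list of each tissue. Per the submitters' notes and the study's methods, the authors used cutadapt 3.4 for trimming, STAR 2.7.9 for mapping (mm10), UMI-tools 1.1.1 for duplicates and CLIPper for peaks, and the 2 replicates were merged by IDR, a measure of reproducibility. The deposited lists give, per the authors, a log2 fold change over input, a −log10 p-value and a −log10 IDR, a reproducibility score, for each peak, past thresholds of 2 for the fold change and the IDR. The lists carry no column names, so their meaning was taken from the broadPeak order and the columns of a supplementary table. Read counts, and hence depth, were not analysed here, and neither were the *Slm2* KO libraries.

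Peaks were assigned to genes of GENCODE vM21 (55450 genes) by centre and strand, and joined into sites when at most 10 nt apart. Motifs were counted, overlaps included, on the strand of the peak in GRCm38 sequence. Flank densities are the mean of 2 windows, which were not cut at the ends of a gene. Gene densities cover all exons where most peaks of the gene are exonic, and the span otherwise. The span thus served for *A330076H08Rik*, with 4 peaks in exons and 4 in introns. Counts of motifs were tested on simulated sequences, joining on made intervals and strand on a stretch of the genome. The members and the lists were chosen with earlier results of these data known. The text names the 7 genes, up to 3 further non-coding genes per tissue by peak count, genes that hold a peak of a member, and listed genes with a peak. Nothing was tested, since 1 list per tissue leaves no replicates. The tools were samtools 1.23.1 and Python 3.11.15 (pysam 0.24.0, matplotlib 3.10.9, scipy 1.17.1, pandas 2.3.3, numpy 2.4.6). Alternatives covered thresholds, joining, windows, masked repeats and comparison peaks.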

Additional observations from a re-analysis of the deposited data

How the results depend on the processing

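Peak counts were stable to strand, overlap and p, but not to a log2 fold change of 3 or more. At that threshold 15 of 38 hippocampal peaks remained (39.5%), against 19 of the 140 other peaks (13.6%). In whole brain 2 of 33 remained (6.06%), against 462 of 2024 (22.8%). The UWAA difference between peaks and flanks over the hippocampal peaks, 0.44 per 100 positions, became −0.39 within the peak itself, −0.21 with 1 window per site, 1.14 around the 5′ end of the peak and 2.55 among peaks of log2 fold change 3 or more. In whole brain, 0.96 became 0.32 in windows at most 20% masked, which leave out *A330076H08Rik*, and 0.26 among peaks of log2 fold change 3 or more.

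By gene, the difference reversed in *Malat1* (−0.17) and *Gm42418* (−0.51) within the peak itself, in *Meg3* (0.11) around the 5′ end, and in *Neat1* (1.53) and *A330076H08Rik* (−1.02) among peaks of log2 fold change 3 or more, which leaves 1 peak each. Against the gene's own sequence, *Malat1* had −0.16 within the peak itself, where motifs across the gaps of 1 nt are lost, and 0.0319 over joined sites, an alternative chosen after seeing the data. *Gm42418* had −0.88 in both. *Malat1* also had 0.28 against its flanks with 1 window per site.

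Against the other peaks, −0.71 in hippocampus became −2.20 within the peak itself, 0.0741 at a −log10 p of at least 2 and 1.44 against exons. Without the first 2 *Malat1* sites, also chosen after seeing the data, it was −1.89, or 0.27 against exons. In whole brain −0.67 became 0.0205 against exons. Of 95 alternative values in all, 69 stayed within 1.5 times (counts), the counting interval (densities) or 1 SD between peaks (places). With 1 position per site the median place was 21.0% in *Malat1*, against 8.57%, and 29.7% in *Gm42418*, against 15.8%, both within that wide SD. Apart from the constructions named, the cause was not tested. No paired analysis was possible because the peak lists used here are merged over replicates, and for the same reason no replicate could be left out.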
